A study of Bos taurus with 10 samples.

Results

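Antigen presentation is the display of peptides on major histocompatibility complex (MHC) molecules at the cell surface, where T cells read them. The genes described are 10 of the 24596 features in the table, taken by name: the class I heavy chain genes JSP.1 and BOLA-NC, B2M, TAPBP, TAP1, TAP2, PSMB8, PSMB9, CD74 and CIITA. All 10 were found, and all 10 were among the 12834 features with a mean of at least 1 RPKM that entered the tests. RPKM, the reads of a gene per length of the gene and per size of the library, allows levels of different genes to be compared.

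The RNA came from epithelial cells of heifers (Bos taurus), taken from the isthmus, the part of the oviduct that joins the uterus. In the pregnant group (5 libraries) each heifer had 50 presumptive zygotes produced in vitro placed in the oviduct, whereas cattle usually ovulate a single oocyte. In the cyclic group (5 libraries) the heifers had a sham transfer. Breed, age and day of collection are not stated in the labels or the table, and no label says whether each library came from its own animal, so n counts libraries and a p-value covers only the spread among them, which may be technical. Recovered library totals ran from 16979985 to 26100133 reads in pregnant and from 9705283 to 18793306 reads in cyclic heifers. EPCAM, an adhesion molecule of epithelia, stood at 318 to 357 RPKM in pregnant and at 321 to 420 RPKM in cyclic heifers, and PTPRC, a surface marker of all leukocytes, at 1.74 to 3.65 RPKM in pregnant and 1.69 to 3.08 RPKM in cyclic heifers. In such tissue samples, fewer cells of a type and less RNA per cell cannot be told apart.

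Class I molecules are built from a heavy chain and beta-2-microglobulin and show peptides made in the cytosol. The proteasome cuts the peptides, the TAP transporter carries them into the endoplasmic reticulum, and tapasin holds the empty class I molecule beside the transporter until a peptide fits. Class II molecules take peptides from the endocytic route, are guided there by the invariant chain CD74, and are made under the control of the transactivator CIITA, mainly in professional antigen-presenting cells and, after exposure to interferon gamma, in epithelia. In the oviduct these molecules lie at a surface that meets sperm, embryos and microbes.

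Of the 10 genes, 8 were lower and 2 higher in pregnant heifers, and the median of their log2 differences (pregnant minus cyclic, on log2(RPKM + 1)) was -0.45, beside a median of 0.01 over all tested features. None of the 10 passed an adjusted p of 0.05 (limma-trend, Benjamini-Hochberg over all tested features), in a comparison that called 0 of 12834 features (0%), and voom on recovered reads called 0 of the 10 too. At an unadjusted p under 0.05, 4 of the 10 were lower, where 11.9% of all tested features were, and 0 were higher, where 15.7% were. For no member were the groups free of overlap, and for 6.96% of all tested features they were. The genes lowest in pregnant relative to cyclic heifers were JSP.1, CD74, TAPBP and BOLA-NC, while B2M and the immunoproteasome genes differed least.

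**Figure D1:**
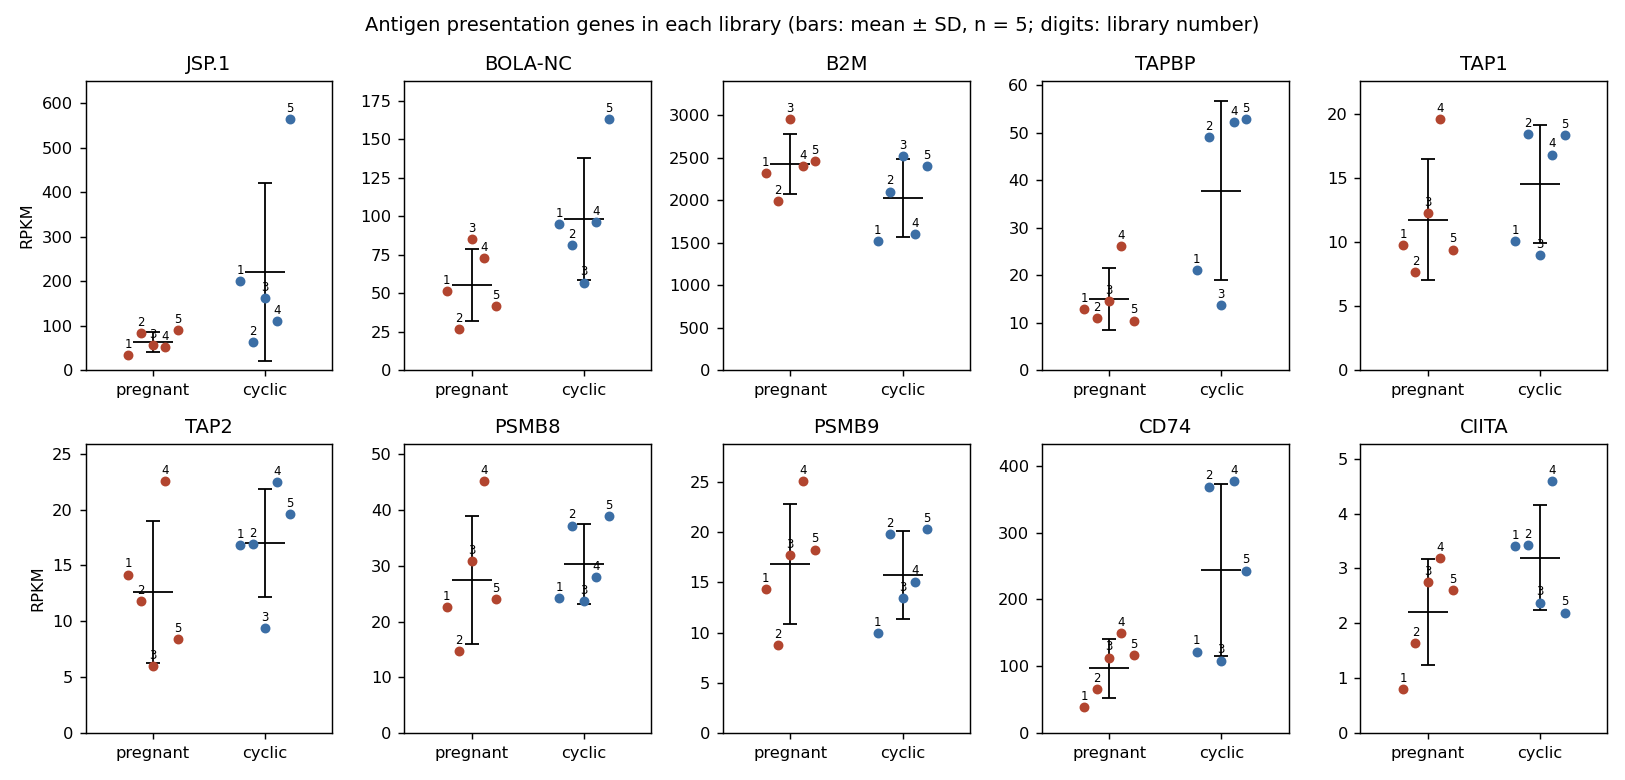
RPKM of the 10 genes in each library, pregnant heifers left and cyclic heifers right, with the mean ± SD of 5 libraries and the library number beside each point. JSP.1 stood at 34.6 to 89.5 RPKM in pregnant and 62.7 to 566 RPKM in cyclic heifers, and in every panel the groups overlap.

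By level, B2M came first at 2229 RPKM over all libraries (16th of 12834 tested features), followed by CD74 (170.0 RPKM), JSP.1 (142 RPKM), BOLA-NC (76.9 RPKM), PSMB8 (28.9 RPKM), TAPBP (26.4 RPKM), PSMB9 (16.3 RPKM), TAP2 (14.8 RPKM), TAP1 (13.1 RPKM) and CIITA (2.70 RPKM). The steps from B2M to CD74, from BOLA-NC to PSMB8 and from TAP1 to CIITA held in 10 of 10 libraries. The other neighbours exchanged places between libraries, with the stated order in 6 or 7 of 10. CD74 exceeded JSP.1 in 4 of 5 pregnant and 2 of 5 cyclic libraries, and PSMB8 exceeded TAPBP in 5 of 5 pregnant and 2 of 5 cyclic libraries.

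JSP.1, a class I heavy chain gene, had 34.6, 84.3, 56.5, 52.1 and 89.5 RPKM in pregnant libraries 1 to 5, against 199.8, 62.7, 162, 111 and 566 RPKM in cyclic libraries 1 to 5. Cyclic library 5 stood far above all others and cyclic library 2 among the pregnant libraries, while 3 of 5 pregnant libraries lay below every cyclic one. The mean was 63.4 ± 23.0 RPKM in pregnant and 220.1 ± 199.9 RPKM in cyclic heifers (SD, n = 5 each), and the log2 difference was -1.46 (SE 0.49, 95% interval -2.52 to -0.40, limma-trend adjusted p = 0.106). Without cyclic library 5 the log2 difference was -1.02. The values rest on 856 to 15209 recovered reads per library.

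Cattle carry different sets of class I genes on different MHC haplotypes, and reads of near-identical copies can be divided between rows, so JSP.1 was set beside the other class I rows. The table holds 3 further rows named BOLA with a copy number, which it does not describe, and the RefSeq table (ARS-UCD2.0) uses the symbol BOLA for a class I gene. BOLA_3 had 244, 219, 359, 372 and 167 RPKM in pregnant libraries 1 to 5, against 118, 542, 146, 263 and 238 RPKM in cyclic libraries 1 to 5. BOLA_2 had 99.9, 45.4, 57.7, 69.7 and 87.7 RPKM in pregnant and 39.6, 9.93, 63.2, 96.3 and 18.8 RPKM in cyclic libraries. Cyclic libraries 5 and 2, which held the highest values of JSP.1 and of BOLA_3, had the lowest of BOLA_2.

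Of the summed RPKM of JSP.1, BOLA_1, BOLA_2 and BOLA_3, the JSP.1 row held 8.47% to 24.2% in pregnant and 9.50% to 65.5% in cyclic libraries. BOLA_3 was the highest of the 4 rows in 5 of 5 pregnant libraries and in 2 of 5 cyclic libraries, and JSP.1 in the other 3 cyclic libraries. The 4 rows summed to 438 ± 77.7 RPKM in pregnant and 567 ± 198 RPKM in cyclic heifers (SD, n = 5 each), with ranges of 370.3 to 532 RPKM in pregnant and 382 to 864 RPKM in cyclic libraries that overlapped. The pregnant mean was 0.773 of the cyclic mean for the sum and 0.288 of it for the JSP.1 row alone. Whether library-to-library differences in MHC haplotype move with the rows was not tested. On their own, BOLA_1, BOLA_2 and BOLA_3 had log2 differences of -0.38, 0.99 and 0.21 (limma-trend adjusted p = 0.233, 0.222 and 0.751), and that of BOLA_3 was negative under 5 of 19 other settings. BOLA_2 passed as higher under 3 of the 19, with log2 differences from 0.57 to 1.98 over all of them. Those among the 19 that called any feature called 56 to 4922 of the tested features, in either direction.

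**Figure D2:**
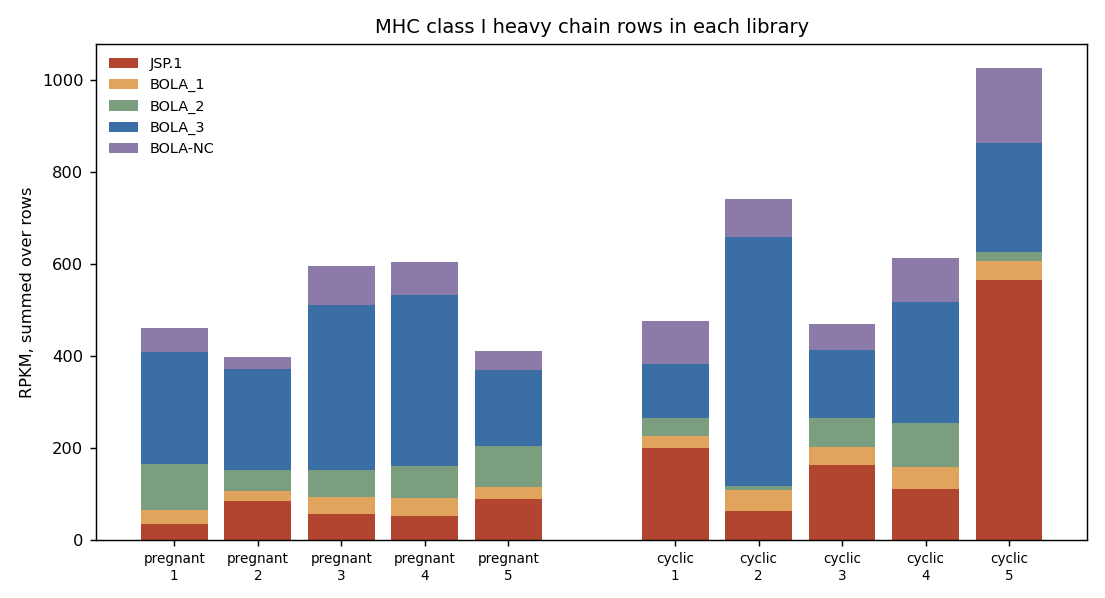
RPKM of the 5 class I heavy chain rows in each library, stacked, with pregnant libraries left and cyclic libraries right. JSP.1 is the tallest band in cyclic library 5 (566 RPKM) and BOLA_3 in cyclic library 2 (542 RPKM), while BOLA_3 is the tallest in all 5 pregnant libraries.

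BOLA-NC, described in the table as a non-classical class I gene, had 51.3, 26.8, 85.0, 72.7 and 41.4 RPKM in pregnant libraries 1 to 5, against 94.6, 81.1, 56.9, 96.1 and 163 RPKM in cyclic libraries 1 to 5. Pregnant libraries 3 and 4 lay among the cyclic ones, and cyclic libraries 2 and 3 lay within the pregnant range. The mean was 55.4 ± 23.5 RPKM in pregnant and 98.4 ± 39.5 RPKM in cyclic heifers (SD, n = 5 each), with a log2 difference of -0.84 (SE 0.32, 95% interval -1.55 to -0.13, limma-trend adjusted p = 0.132). JSP.1 and BOLA-NC have no other protein-coding gene between them in the RefSeq table, and both had their highest value in cyclic library 5.

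B2M, the light chain shared by all class I molecules, had 2322, 1989, 2960, 2406 and 2463 RPKM in pregnant libraries 1 to 5, against 1516, 2103, 2523, 1600 and 2407 RPKM in cyclic libraries 1 to 5. It varied least of the 10 genes, 1.95-fold from the lowest library to the highest, where JSP.1 varied 16.3-fold. The mean was 2428 ± 349.5 RPKM in pregnant and 2029.8 ± 458 RPKM in cyclic heifers (SD, n = 5 each), and the log2 difference was 0.28 (95% interval -0.16 to 0.72, limma-trend adjusted p = 0.382). Without cyclic library 1 it was 0.18.

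Within a library the ratio of JSP.1 to B2M does not depend on how libraries are scaled. It averaged -5.33 ± 0.64 in pregnant and -3.58 ± 1.13 in cyclic heifers (log2, SD, n = 5 each), a difference of -1.75 (two-sided exact permutation p = 0.0238, adjusted over 5 pairs of genes p = 0.0397), and 3 of 5 pregnant libraries lay below every cyclic one. That adjusted call was lost with any single library left out except cyclic library 2. With the 4 class I rows summed in place of JSP.1 the difference was -0.60 and did not pass (exact permutation p = 0.0476, adjusted p = 0.0794). The pairs were chosen with the differences of single genes known, so their directions are not independent of those genes. The p-values of the pairs do not cover that choice.

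Tapasin, encoded by TAPBP, edits the peptides that class I molecules bind. TAPBP had 12.8, 10.98, 14.5, 26.2 and 10.5 RPKM in pregnant libraries 1 to 5, against 21.1, 49.2, 13.7, 52.2 and 53.0 RPKM in cyclic libraries 1 to 5. Cyclic libraries 2, 4 and 5 lay above every pregnant library, pregnant library 4 stood apart from its group, and cyclic libraries 1 and 3 lay inside the range of the pregnant group. The mean was 15.0 ± 6.46 RPKM in pregnant and 37.8 ± 18.9 RPKM in cyclic heifers (SD, n = 5 each), with a log2 difference of -1.18 (SE 0.38, 95% interval -2.01 to -0.34, limma-trend adjusted p = 0.103). Without cyclic library 3 the difference was -1.48 and passed (limma-trend adjusted p = 0.0322), in a comparison that then called 8.02% of all tested features as lower.

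TAP1 and TAP2 form the peptide transporter as a heterodimer. TAP1 had 9.75, 7.64, 12.3, 19.6 and 9.41 RPKM in pregnant libraries 1 to 5, against 10.1, 18.4, 8.99, 16.8 and 18.3 RPKM in cyclic libraries 1 to 5. TAP2 had 14.2, 11.8, 6.02, 22.5 and 8.44 RPKM in pregnant and 16.8, 16.9, 9.39, 22.5 and 19.6 RPKM in cyclic libraries. For both genes cyclic library 3 lay among the low values and pregnant library 4 at the top of the range. The log2 differences were -0.30 (95% interval -0.87 to 0.28) for TAP1 and -0.48 (95% interval -1.16 to 0.20) for TAP2, with limma-trend adjusted p of 0.477 and 0.325. Leaving out pregnant library 4 gave -0.49 for TAP1 and -0.71 for TAP2, while leaving out pregnant library 2 gave -0.17 for TAP1 and leaving out pregnant library 3 gave -0.27 for TAP2. The ratio of TAP2 to TAP1 ran from 0.491 in pregnant library 3 to 1.55 in the pregnant group and from 0.916 to 1.67 in the cyclic group.

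The ratio of TAPBP to TAP1, partners in the peptide-loading complex, was 1.31, 1.44, 1.18, 1.34 and 1.11 in pregnant libraries 1 to 5, against 2.10, 2.67, 1.52, 3.11 and 2.89 in cyclic libraries 1 to 5. All 5 pregnant libraries lay below all 5 cyclic ones, cyclic library 3 being the closest to the pregnant group. The ratio fell by 0.91 on the log2 scale, to 0.35 ± 0.15 in pregnant, against 1.25 ± 0.42 in cyclic heifers (SD, n = 5 each, two-sided exact permutation p = 0.00794, the smallest that 5 against 5 libraries can give, adjusted p = 0.0397 over 5 pairs). With any library left out the difference stayed between -1.07 and -0.81, and the exact permutation p was 0.0159, the smallest that 4 against 5 libraries can give. Adjusted over the pairs, that p was 0.0397 to 0.0794, so the adjusted call was lost without any of 8 of the 10 libraries, at a p no lower than the design allows. These p-values do not cover the choice of the pair with the differences of its single genes known.

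**Figure D3:**
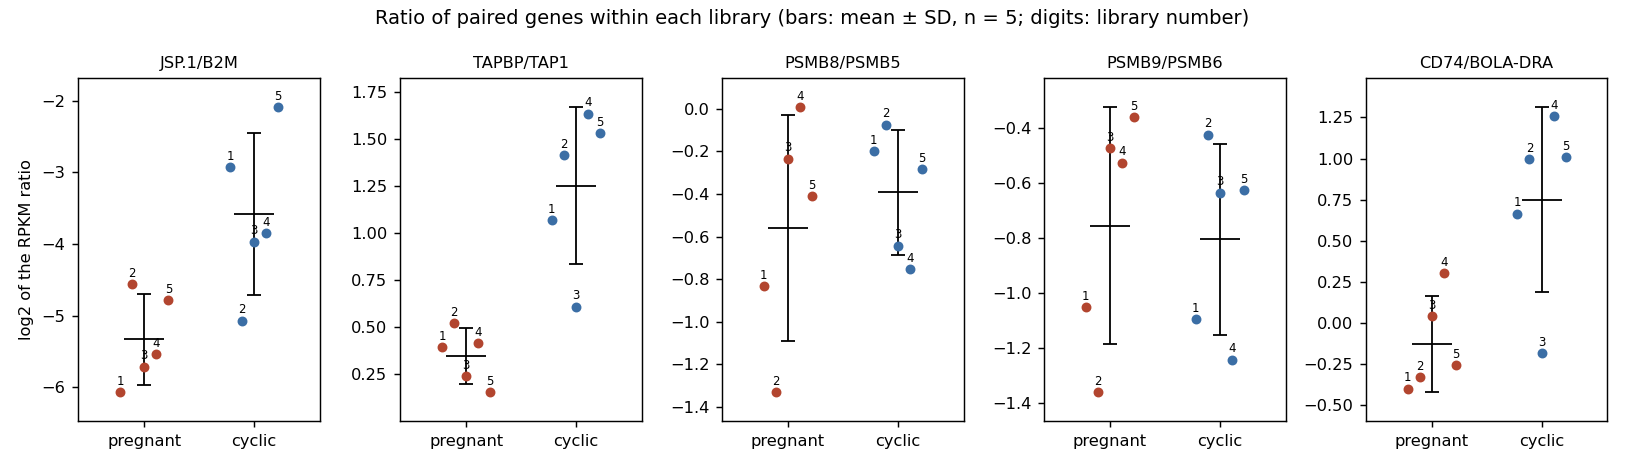
Log2 ratio of the RPKM of paired genes within each library, pregnant heifers left and cyclic heifers right, with the mean ± SD of 5 libraries. For TAPBP/TAP1 all pregnant libraries (1.11 to 1.44 before the logarithm) lie below all cyclic ones (1.52 to 3.11), and for the proteasome pairs the groups lie across each other.

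PSMB8 and PSMB9 are catalytic subunits of the immunoproteasome, which takes the place of the constitutive proteasome after exposure to interferon gamma. PSMB8 had 22.6, 14.7, 30.9, 45.2 and 24.0 RPKM in pregnant libraries 1 to 5, against 24.2, 37.2, 23.6, 27.9 and 38.9 RPKM in cyclic libraries 1 to 5. PSMB9 had 14.3, 8.78, 17.7, 25.0 and 18.3 RPKM in pregnant and 9.95, 19.8, 13.4, 15.1 and 20.3 RPKM in cyclic libraries. Pregnant library 4 held the highest and pregnant library 2 the lowest value of both, as they did of TAP1, so the pregnant group spanned the whole range. The log2 differences were -0.20 (95% interval -0.77 to 0.37) for PSMB8 and 0.06 (95% interval -0.50 to 0.63) for PSMB9, with limma-trend adjusted p of 0.643 and 0.893, and that of PSMB9 changed sign under 6 of 19 other settings. For PSMB8 it was -0.40 when pregnant library 4 was left out and -0.0083 when pregnant library 2 was.

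In the RefSeq table PSMB8 lies next to TAP1 and TAP1 next to PSMB9, with no protein-coding gene between them. Their values set against the constitutive subunits whose places they take showed no difference that passed. The ratio of PSMB8 to PSMB5 averaged -0.56 ± 0.53 in pregnant and -0.39 ± 0.29 in cyclic heifers (log2, SD, n = 5 each, exact permutation p = 0.563), and that of PSMB9 to PSMB6 -0.75 ± 0.43 in pregnant and -0.80 ± 0.35 in cyclic heifers (exact permutation p = 0.802). PSMB10, the remaining immunoproteasome subunit, averaged 15.9 ± 7.01 RPKM in pregnant and 18.2 ± 6.48 RPKM in cyclic heifers (SD, n = 5 each, log2 difference -0.19). Of the 7 proteasome genes beside the members (PSMB5, PSMB6, PSMB7, PSMB10 and the activator subunits PSME1, PSME2 and PSME3), 0 passed and 0 had an unadjusted p under 0.05, with log2 differences from -0.19 to 0.21.

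**Figure D4:**
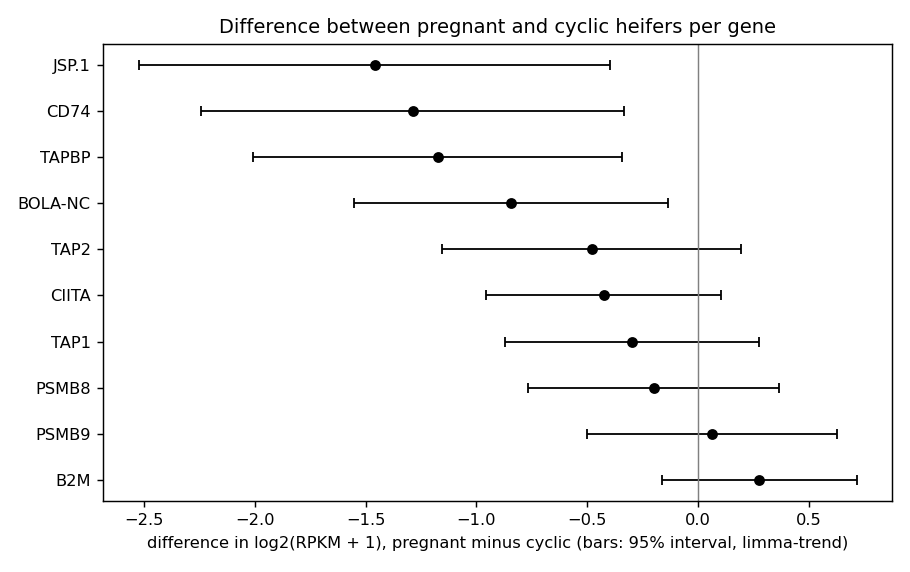
Log2 difference of each of the 10 genes, pregnant minus cyclic, with its 95% interval from limma-trend. JSP.1 (-1.46), CD74 (-1.29), TAPBP (-1.18) and BOLA-NC (-0.84) have intervals below 0, although none passes after adjustment, and B2M (0.28) lies furthest to the right.

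CD74, the invariant chain that blocks and guides class II molecules on their way to the endosome, had 38.2, 66.1, 113, 149 and 116 RPKM in pregnant libraries 1 to 5, against 122, 369, 108, 376 and 243 RPKM in cyclic libraries 1 to 5. Cyclic libraries 2, 4 and 5 lay above every pregnant library, and cyclic libraries 1 and 3 lay within the range of the pregnant group. The mean was 96.4 ± 44.0 RPKM in pregnant and 244 ± 129 RPKM in cyclic heifers (SD, n = 5 each), with a log2 difference of -1.29 (SE 0.44, 95% interval -2.24 to -0.33, limma-trend adjusted p = 0.108). Without cyclic library 3 the difference was -1.53 and passed (limma-trend adjusted p = 0.0415), where 8.02% of all tested features were called lower. CIITA, the master regulator of class II genes, had 0.796, 1.64, 2.75, 3.19 and 2.61 RPKM in pregnant and 3.41, 3.43, 2.38, 4.59 and 2.20 RPKM in cyclic libraries, resting on as few as 51 recovered reads. Pregnant library 1 was lowest for both CD74 and CIITA, and cyclic library 4 highest for both. The log2 difference of CIITA was -0.43 (95% interval -0.96 to 0.11, limma-trend adjusted p = 0.270), and without pregnant library 1 it was -0.23.

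The DR chains, which CD74 accompanies, had smaller differences between the groups than CD74. BOLA-DRA, the DR alpha chain, had 50.4, 83.3, 109.5, 121 and 139 RPKM in pregnant libraries 1 to 5, against 76.8, 185, 123, 157 and 121 RPKM in cyclic libraries 1 to 5. BOLA-DRB3, the DR beta chain, averaged 41.4 ± 17.6 RPKM in pregnant and 63.9 ± 26.1 RPKM in cyclic heifers (SD, n = 5 each). The ratio of CD74 to BOLA-DRA was 0.757, 0.794, 1.03, 1.23 and 0.836 in pregnant libraries 1 to 5, against 1.58, 2.0, 0.878, 2.39 and 2.01 in cyclic libraries 1 to 5. Cyclic library 3 lay inside the pregnant range and the other 4 cyclic libraries above it. The ratio fell by 0.88 on the log2 scale in pregnant heifers (two-sided exact permutation p = 0.0238, adjusted over 5 pairs p = 0.0397). That adjusted call was lost with any single library left out except cyclic library 3 (exact permutation, adjusted p = 0.0397 without it and 0.0794 otherwise). Here too the p-values do not cover the choice of the pair with single genes' differences known.

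The DQ alpha (DQA) rows differed between libraries more than between groups. Of the DQ beta (DQB) rows, BOLA-DQB_2 had 7.86 to 35.9 RPKM in pregnant and 15.55 to 52.0 RPKM in cyclic libraries. Its log2 difference was -0.84 (limma-trend adjusted p = 0.199). BOLA-DQA1 had 23.8, 5.65, 10.8, 33.3 and 76.5 RPKM in pregnant libraries 1 to 5, against 25.0, 54.8, 22.4, 49.9 and 0.993 RPKM in cyclic libraries 1 to 5. BOLA-DQA2 was listed at 0 in pregnant library 1 and at 0.038 RPKM in pregnant library 5, while pregnant libraries 2, 3 and 4 had 5.08 to 7.46 RPKM, against 0.817 to 9.74 RPKM in cyclic libraries. BOLA-DQA5 was listed at 0 in pregnant library 1 too and reached 9.74 RPKM in pregnant library 3, against at most 2.62 RPKM in cyclic libraries. Cattle haplotypes carry different DQ genes, and whether that moves with these rows was not tested. The 3 DQA rows summed to 36.0 ± 25.4 RPKM in pregnant and 38.3 ± 23.2 RPKM in cyclic heifers, and both DQB rows to 19.2 ± 10.2 RPKM in pregnant and 33.4 ± 16.8 RPKM in cyclic heifers (SD, n = 5 each).

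**Figure D5:**
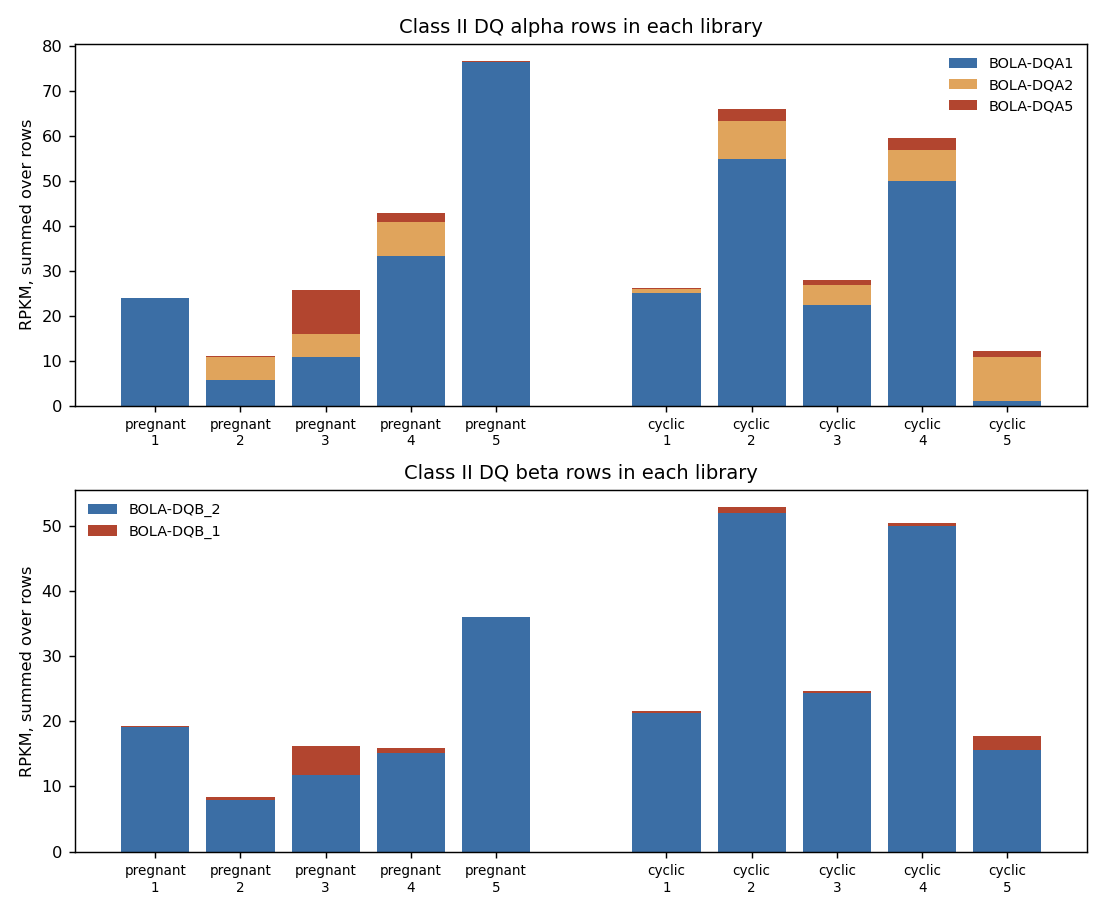
RPKM of the class II DQ alpha rows (top) and DQ beta rows (bottom) in each library, stacked, with pregnant libraries left and cyclic libraries right. BOLA-DQA1 is the tallest alpha band in every library except cyclic library 5 (0.993 RPKM), and pregnant library 3 has the largest share from BOLA-DQA5 (9.74 RPKM).

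In the wider class II list, 13 of 19 matched genes were tested. Of these, 4 were higher and 9 lower, with a median log2 difference of -0.42 beside 0.01 over all tested features. None passed. At an unadjusted p under 0.05, 3 of the 13 were lower and 0 higher, beside 11.9% lower and 15.7% higher of all tested features. Those 3 were enzymes of the endosome: CATB (cathepsin B) at 46.0 ± 9.14 RPKM in pregnant and 82.5 ± 24.2 RPKM in cyclic heifers (SD, n = 5 each), IFI30, a thiol reductase that unfolds antigens, at 11.7 ± 2.91 RPKM in pregnant and 19.4 ± 5.50 RPKM in cyclic heifers, and LGMN, the protease legumain, at 7.80 ± 3.08 RPKM in pregnant and 13.1 ± 4.43 RPKM in cyclic heifers. CTSS, the cathepsin that trims the invariant chain, lay in the other direction, at 59.2 ± 8.58 RPKM in pregnant and 48.3 ± 7.64 RPKM in cyclic heifers (log2 difference 0.29). BOLA-DMA and HLA-DMB, the chains of the peptide exchanger DM, stood at 9.32 to 18.1 and 8.64 to 23.4 RPKM in pregnant heifers and at 10.1 to 17.7 and 13.0 to 22.6 RPKM in cyclic heifers.

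Among 10 tested genes of peptide loading and trimming, 4 were higher and 6 lower, with a median of -0.25 and 0 passing. TAPBPL, a tapasin-related peptide editor, averaged 6.11 ± 1.69 RPKM in pregnant and 10.2 ± 3.17 RPKM in cyclic heifers (SD, n = 5 each, log2 difference -0.63, limma-trend adjusted p = 0.116). LNPEP, an aminopeptidase of endosomes, averaged 5.14 ± 1.61 RPKM in pregnant and 3.36 ± 0.893 RPKM in cyclic heifers (log2 difference 0.48, limma-trend adjusted p = 0.167). These were the only list members with an unadjusted p under 0.05. That is 1 of 10 lower and 1 of 10 higher, beside 11.9% lower and 15.7% higher of all tested features. ERAP1, which trims peptides in the endoplasmic reticulum, differed by -0.37 on the log2 scale, and BCAP31, which escorts class I molecules to the Golgi, by -0.32. GANAB differed by -0.34, and UGGT1, CANX and ERAP2 in the other direction, by 0.21, 0.09 and 0.06. The differences of CANX and ERAP2 each changed sign under 6 of 19 other settings.

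Of 9 tested class I and class I-like genes beside the members, 5 were higher and 4 lower, with a median of 0.05 and 0 passing. FCGRT, the heavy chain of the neonatal Fc receptor that pairs with B2M and carries immunoglobulin G, had 21.8, 40.1, 20.9, 29.6 and 24.8 RPKM in pregnant libraries 1 to 5, against 51.2, 44.1, 56.6, 67.8 and 46.3 RPKM in cyclic libraries 1 to 5. All pregnant libraries lay below all cyclic ones, as for 2.05% of all tested features, and the log2 difference was -0.95 (SE 0.18, limma-trend adjusted p = 0.0934, a value shared by the features of lowest adjusted p). AZGP1, a soluble class I-like protein, averaged 387 ± 122 RPKM in pregnant and 554 ± 118 RPKM in cyclic heifers (SD, n = 5 each). MR1, which presents microbial metabolites, stood at 4.08 to 9.33 RPKM in pregnant and 4.30 to 7.28 RPKM in cyclic heifers, and ENSBTAG00000010166, described in the table as MIC1, at 43.2 to 213 RPKM in pregnant and 74.8 to 164 RPKM in cyclic heifers.

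Among 20 tested genes of transcription control, 7 were higher and 13 lower, with a median of -0.08 and 0 passing. NLRC5, the class I counterpart of CIITA, had 2.53, 2.20, 4.17, 4.80 and 3.41 RPKM in pregnant libraries 1 to 5, against 2.23, 3.55, 2.99, 4.04 and 3.49 RPKM in cyclic libraries 1 to 5, with full overlap. At an unadjusted p under 0.05, 3 of the 20 were lower (SOCS3, RELA and NFKB1) and 1 was higher (CREB1), beside 11.9% lower and 15.7% higher of all tested features. SOCS3, an inhibitor of cytokine signalling, had 0.248, 0.197, 0.673, 0.583 and 0.493 RPKM in pregnant libraries 1 to 5, against 1.86, 4.03, 2.18, 2.50 and 1.37 RPKM in cyclic libraries 1 to 5. All its pregnant libraries lay below all cyclic ones, as for 2.05% of all tested features, on 3 to 51 recovered reads per library. Its log2 difference was -1.20 (limma-trend adjusted p = 0.0934), and it was the only 1 of the 20 genes without overlap. RELA, a subunit of NF-kappaB, averaged 15.5 ± 3.50 RPKM in pregnant and 28.0 ± 10.9 RPKM in cyclic heifers, and CREB1, which binds the promoters of MHC genes, 14.5 ± 2.13 RPKM in pregnant and 9.04 ± 2.41 RPKM in cyclic heifers (SD, n = 5 each). IFNGR1 and IFNGR2, the chains of the interferon gamma receptor, had log2 differences of 0.17 and -0.36.

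Markers of leukocytes were set beside these genes because class II genes are strongest in antigen-presenting cells. The 15 matched myeloid and dendritic markers summed to 25.8 to 34.5 RPKM in pregnant and 22.6 to 39.8 RPKM in cyclic heifers, the 10 T and NK markers to 10.2 to 16.2 RPKM in pregnant and 10.2 to 15.2 RPKM in cyclic heifers, and the 7 B and plasma cell markers to 8.41 to 17.7 RPKM in pregnant and 3.64 to 13.7 RPKM in cyclic heifers. The 5 endothelial markers summed to 5.84 to 17.4 RPKM in pregnant and 6.43 to 16.8 RPKM in cyclic heifers. None of these lists had a gene at 0 in every library, but the B cell genes MS4A1, CD79A and CD79B reached at most 0.149, 0.204 and 0.078 RPKM, and the dendritic cell gene XCR1 at most 0.118 RPKM. CD14, a monocyte and macrophage marker, had 0.871, 1.35, 2.30, 1.13 and 1.47 RPKM in pregnant libraries 1 to 5, against 0.978, 8.81, 3.18, 6.32 and 3.36 RPKM in cyclic libraries 1 to 5. Cyclic libraries 2 and 4 were the highest for both CD14 and CD74. Other myeloid markers lay in both directions: of the 8 tested, 3 were higher and 5 lower in pregnant heifers, with 0 passing. FCER1G, a signalling chain of Fc receptors, averaged 7.02 ± 1.16 RPKM in pregnant and 9.24 ± 0.498 RPKM in cyclic heifers. All its pregnant libraries lay below all cyclic ones, as for 2.05% of all tested features, and it was the only 1 of the 8 without overlap. AIF1, a macrophage protein, went the other way, at 7.60 ± 1.16 RPKM in pregnant and 5.36 ± 0.946 RPKM in cyclic heifers (SD, n = 5 each). FLT3 and CD80, genes of dendritic cells and of costimulation, had log2 differences of 0.55 and 0.25. The 7 epithelial markers, of which OVGP1 makes up most, summed to 2768 ± 1178 RPKM in pregnant and 6695 ± 2254 RPKM in cyclic heifers (SD, n = 5 each). Without OVGP1, the oviduct-specific glycoprotein, the other 6 summed to 718 ± 46.9 RPKM in pregnant and 935 ± 141 RPKM in cyclic heifers (SD, n = 5 each). Of the 7 epithelial markers, 6 were lower and 1 higher in pregnant heifers, with 0 passing. At an unadjusted p under 0.05 (limma-trend), 4 of the 7 were lower, beside 11.9% of all tested features. These were OVGP1, FOXJ1, KRT8 and KRT18, with log2 differences of -1.61, -0.83, -0.73 and -0.44. The higher 1 was PAX8, a transcription factor of oviduct epithelium, which averaged 88.1 ± 5.99 RPKM in pregnant and 87.5 ± 14.9 RPKM in cyclic heifers. The part of these cell types in the results was not tested.

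Likeness to JSP.1 and CD74 over the 10 libraries was measured as Pearson's r of log2(RPKM + 1) across all tested features outside the 10 genes, as a description over libraries that share the group difference. Closest to JSP.1 were SNX8 (0.90), SPNS3 (0.90), SLC13A2 (0.89), TAF3 (0.86) and SLC19A3 (0.83), of which none is a class I gene. The highest r with JSP.1 for any of the other 9 genes was 0.54. SNX8, SPNS3, SLC13A2 and TAF3 had their highest value in cyclic library 5, as JSP.1 did, and SLC19A3 in cyclic library 3. These r are the highest picked from all tested features over only 10 libraries. Closest to CD74 were BOLA-DRB3 (0.97), MYL9_1 (0.96), the chemokine gene CXCL16 (0.95), MTA1 (0.95) and the chemokine gene CX3CL1 (0.95), and the highest value among the other 9 was 0.87. CX3CL1 had 1.59 to 4.24 RPKM in pregnant heifers, against 14.8, 18.7 and 11.9 RPKM in cyclic libraries 2, 4 and 5. Cyclic libraries 1 and 3 had 3.31 and 3.57 RPKM, the same split of the cyclic libraries as for CD74 and TAPBP. CX3CL1 was picked for its likeness to CD74, so sharing the split of CD74 follows from that choice.

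Member calls depended on which libraries entered the fit. Without cyclic library 3, 2 of the 10 genes passed as lower (TAPBP and CD74), beside 8.02% of all tested features. Without pregnant library 4 alone, 0 of the 10 passed, in a fit that called 56 of all tested features in either direction. Without both libraries 5 passed as lower (BOLA-NC, TAPBP, TAP1, TAP2 and CD74), beside 13.6% of all tested features called lower in that fit. For TAPBP, TAP1, TAP2 and CD74, cyclic library 3 was the lowest of its group and pregnant library 4 the highest of its group. Leaving both out therefore widens the differences of these genes by construction, and that fit is no independent check of them. With sample array weights, which give less weight to libraries that stand apart, 4 passed as lower (TAPBP, TAP1, TAP2 and CD74), beside 18.3% of all tested features. The same 4 passed as lower with array weights kept beside the trend (18.2% of all tested features) and with voom quality weights on recovered reads (19%).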

How the data were processed

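Polyadenylated RNA was sequenced as stranded TruSeq libraries after PCR amplification, per the labels' protocols; no aligner, counter, build or strand setting of the counting is given in the sources used here. The authors deposited 1 table whose header says only expression, and its values behaved as RPKM. Library totals were recovered as the numbers at which 13 of 13 mitochondrial genes, at their annotated lengths, gave whole reads (tolerance 0.02 reads plus rounding). Gene lengths of up to 12000 bases then gave whole reads for 12791 of 12834 tested features, and for 2 of 500 jittered ones. Reads are PCR copies without molecular identifiers, so read numbers cover counting error only.

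The test was limma-trend (limma 3.58.1, R 4.3.3) on log2(RPKM + 1) over features with a mean of at least 1 RPKM, which understates changes of low genes, with a single group term and p-values adjusted by Benjamini-Hochberg over all tested features at 0.05. This fit was tested on simulated data with equal and independent noise in every library, so libraries that stand apart were not covered. The count test planned for raw counts was not needed. Ratios of gene pairs used a two-sided exact permutation test (scipy 1.17.1). Other settings were a pseudocount of 0.1, no filter, median-ratio scaling, array weights, voom on recovered reads, a threshold of 0.1, leaving out libraries and the library number as a block. Array weights with the trend, voom with quality weights and the summed class I rows were added after seeing the data. The 10 genes, the lists, the pairs and the naming rule (all 10 genes, up to 4 genes of smallest p per direction and list, and 5 genes most like JSP.1 and CD74) were chosen with earlier results of these data known. CTSL1, PROCR, HFE, NFYB and JAK2, all higher in pregnant heifers without passing, were picked by that rule but are not described above. Class I, DQ and DR rows may share reads with near-identical copies, which leaves their values uncertain. Some further genes of the lists and markers (such as NLRC5, MR1, HLA-DMB, the DQ rows, CD14, AIF1, FCER1G, FLT3, CD80 and PAX8), the marker sum without OVGP1 and the TAP2 to TAP1 ratio were named outside that rule, after their values were seen. No sequence was used here.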

Additional observations from a re-analysis of the deposited data

Results flagged for a closer look

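JSP.1 in cyclic library 5, at 565.533 RPKM, stood apart from the other 4 cyclic libraries, which had 62.7 to 199.8 RPKM, with a gap of 0.727 of the group's range. TAPBP in pregnant library 4, at 26.198 RPKM, stood apart from the other 4 pregnant libraries, which had 10.5 to 14.5 RPKM, with a gap of 0.745 of the range. Among the 32 groups of 5 libraries checked in this way, chance marks about 1 in 20.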

How the results depend on the processing

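Features passing the threshold numbered 0 with equal weights, 4789 with array weights in place of the trend, 4831 with array weights and the trend, 4922 with voom quality weights, 3578 without cyclic library 3 and pregnant library 4, 1018 at a threshold of 0.1, and 0 to 2213 with 1 library left out, the highest count being that without cyclic library 3. Members passing numbered 4 under each of the 3 weighted fits, 5 without both libraries, and 0 to 2 with 1 library left out. At the threshold of 0.1, 0 members passed. PSMB9 had a log2 difference of -0.19 under both array weight fits, -0.24 with voom quality weights, -0.13 without both libraries, and -0.091 to 0.26 with 1 library left out. The log2 ratio differences with 1 library left out were -2.12 to -1.38 for JSP.1/B2M, -1.07 to -0.81 for TAPBP/TAP1, -0.31 to 0.025 for PSMB8/PSMB5, -0.059 to 0.20 for PSMB9/PSMB6 and -1.11 to -0.75 for CD74/BOLA-DRA. Without both libraries they were -1.80, -1.08 and -1.22 for JSP.1/B2M, TAPBP/TAP1 and CD74/BOLA-DRA, none passing, and the JSP.1/B2M difference with class I rows summed was -0.60. With the library number as a replicate block the differences were again -1.75, -0.91 and -0.88, with an adjusted p of 0.208 each by sign flips, which cannot go below 0.0625 before adjustment with 5 pairs, and 0 features passed. The correlations of same-numbered libraries, after removing group means, ran from -0.34 to 0.28. They were not set beside those of differently numbered libraries, so they cannot settle whether library numbers pair the samples. The cause of these changes was not tested. Of the values of single members under other settings, 165 kept their direction and side of the threshold, 19 passed and 6 turned direction. Members with few reads, such as CIITA, carry the largest counting error.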
